A study of Mus musculus with 30 samples.

Results

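The genes described here encode nuclear subunits of the 5 complexes of oxidative phosphorylation. They were chosen by symbol alone: every array feature annotated to 1 gene whose symbol begins with Nduf (a, b, c, s or v with a number), Uqcr, Cox4 to Cox8 or Atp5, or is Sdha, Sdhb, Sdhc or Sdhd. Of 21775 features with 1 gene symbol, 105 matched. Taking the feature with the highest mean for each symbol left 81 genes of the 19938 tested, and 16 of the 81 were represented by more than 1 feature. Complex I held 33 of the genes, complex II 4, complex III 8, complex IV 19 and complex V 17. Ndufa4 and Ndufa4l2 were counted with complex IV, to which NDUFA4 protein belongs despite its name. Subunits with other symbols, such as Cyc1 of complex III, were not members, and Cyc1 is given with the electron carriers. All 81 Entrez numbers were found in RefSeq as protein-coding genes with the same symbol, so no pseudogene was among them.

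The samples were subcutaneous tumours of EL4, a mouse T lymphoma line, titled WT in the labels without a further statement of strain. One arm of mice had received an antibiotic cocktail (ABX) for 3 weeks before tumour inoculation and the other was left untreated (H2O, called water here). Tumours were collected 0, 6 or 18 h after an intraperitoneal injection of oxaliplatin, a platinum drug that crosslinks DNA, at 10 mg per kg. Each of the 6 combinations of arm and time was measured on 5 Affymetrix arrays, 30 in all, and the labels do not state that the 5 were separate mice and the p-values therefore describe only how far these samples spread. The series set out to compare tumour gene expression with and without antibiotics, before and soon after chemotherapy. All later tumours had met the drug, so time after oxaliplatin and time alone cannot be told apart, and the composition of the cocktail is not given in the labels. EL4 cells were grown in a host with its own stroma and leukocytes, and a bulk array cannot tell fewer cells of a type from less RNA per cell.

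Complexes I and II pass electrons from NADH and succinate to ubiquinone, complex III hands them to cytochrome c, and complex IV (cytochrome c oxidase) gives them to oxygen. Complexes I, III and IV pump protons across the inner mitochondrial membrane, and complex V (ATP synthase) uses the returning protons to make ATP. Complexes I, III, IV and V also contain subunits encoded by mitochondrial DNA. Several subunits of complex IV exist as tissue isoforms, with COX6A2, COX7A1 and COX8B typical of heart and skeletal muscle. NRF-1, the GABP (NRF-2) complex and YY1 are transcription factors known for binding the promoters of many of these genes.

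Of the T cell markers, 8 of 10 were tested, and their mean deposited values lay between 10.1 (Zap70) and 11.9 (Thy1) on the log2 scale, above array medians of 7.25 to 7.37. After each gene was centred on its 30-array mean, the 8 keratinocyte markers averaged 2.22 on array 1 of the water group at 6 h, 2.15 on array 1 of the antibiotic group at 6 h and at most 0.56 elsewhere. The mean of 12 skeletal muscle markers was 1.56 on antibiotic 6 h array 5 and at most 0.77 elsewhere. A fit without these 3 arrays was also made, and the members' calls that it ended are stated.

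The promoters of Uqcr11 and Cox6a1 are shown first, because these genes were among the members that rose in water mice at 18 h and their promoters carried the recognition letters of NRF-1. The sequences are from RefSeq, build GRCm38.p6, written 5′ to 3′ on the gene's strand, with motif matches in capitals. The Uqcr11 window is chr10:80406792-80406941, minus strand, from position -120 to position 30 relative to the annotated start, and the Cox6a1 window is chr5:115349009-115349158, minus strand, from position -200 to position -51.
Uqcr11: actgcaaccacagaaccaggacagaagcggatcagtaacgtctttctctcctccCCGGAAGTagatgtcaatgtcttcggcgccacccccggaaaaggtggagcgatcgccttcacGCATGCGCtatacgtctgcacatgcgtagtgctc
Cox6a1: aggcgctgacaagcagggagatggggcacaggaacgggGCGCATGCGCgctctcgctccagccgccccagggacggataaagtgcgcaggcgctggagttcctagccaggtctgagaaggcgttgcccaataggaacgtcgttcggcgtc
In Uqcr11 the first capitals are the ETS (GABP) letters, whose first base lies 66 bases before the start, and the second are the NRF-1 letters, 4 bases before it. In Cox6a1 the capitals hold a pair of overlapping NRF-1 matches, 1 on each strand, beginning 162 and 160 bases before the start.

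Exact matches on either strand were counted in windows of 300 bases, from 250 before to 50 after each start. A promoter was found for 66 of the 81 genes. The NRF-1 letters GCATGCGC were present in 10 of the 66 (15.2%), against 3.05% of the 27025 genes with a promoter in the RefSeq table. The ETS letters CCGGAAGT were in 5 (7.58%) against 4.31%, and the YY1 letters AAGATGGCG in 7 (10.6%) against 1.64%. Any of the 3 was in 21 of the 66 (31.8%), against 8.47% of all genes. Among the members called in water mice at 18 h, described next, 11 had a promoter in the table and 4 of these held a match: Uqcr11, Cox6a1, Ndufc1 and Ndufs4. The last pair held the YY1 letters. These are counts of letters and no test was made of them.

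The subunit genes varied little. Their median standard deviation over the 30 arrays was 0.0781 log2 units, against 0.124 for all genes, and their median residual standard deviation within groups was 0.0712 against 0.115. These comparisons were not matched for level. A filter on low values kept 75 of the 81 members and 10367 of the 19938 genes. Cox5b and Atp5b, the catalytic beta subunit of ATP synthase, had the smallest spreads of complexes IV and V, at 0.0332 and 0.0365. The 3 members with the largest spread were Cox8b (0.42), Cox6a2 (0.32) and Ndufb2 (0.22). Averaged over all members, no array departed from the members' overall mean by more than 0.068 log2 units. Mean deposited values, which depend on the probes as well as the transcript and so cannot rank genes, ran from 8.22 (Ndufb3) to 12.8 (Ndufc2) in complex I, 10.7 (Sdhc) to 11.6 (Sdha) in complex II, 8.97 (Uqcrfs1) to 12.5 (Uqcrb) in complex III, 4.75 (Cox7b2) to 13.0 (Cox6c) in complex IV and 8.78 (Atp5k) to 12.8 (Atp5b) in complex V.

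**Figure D1:**
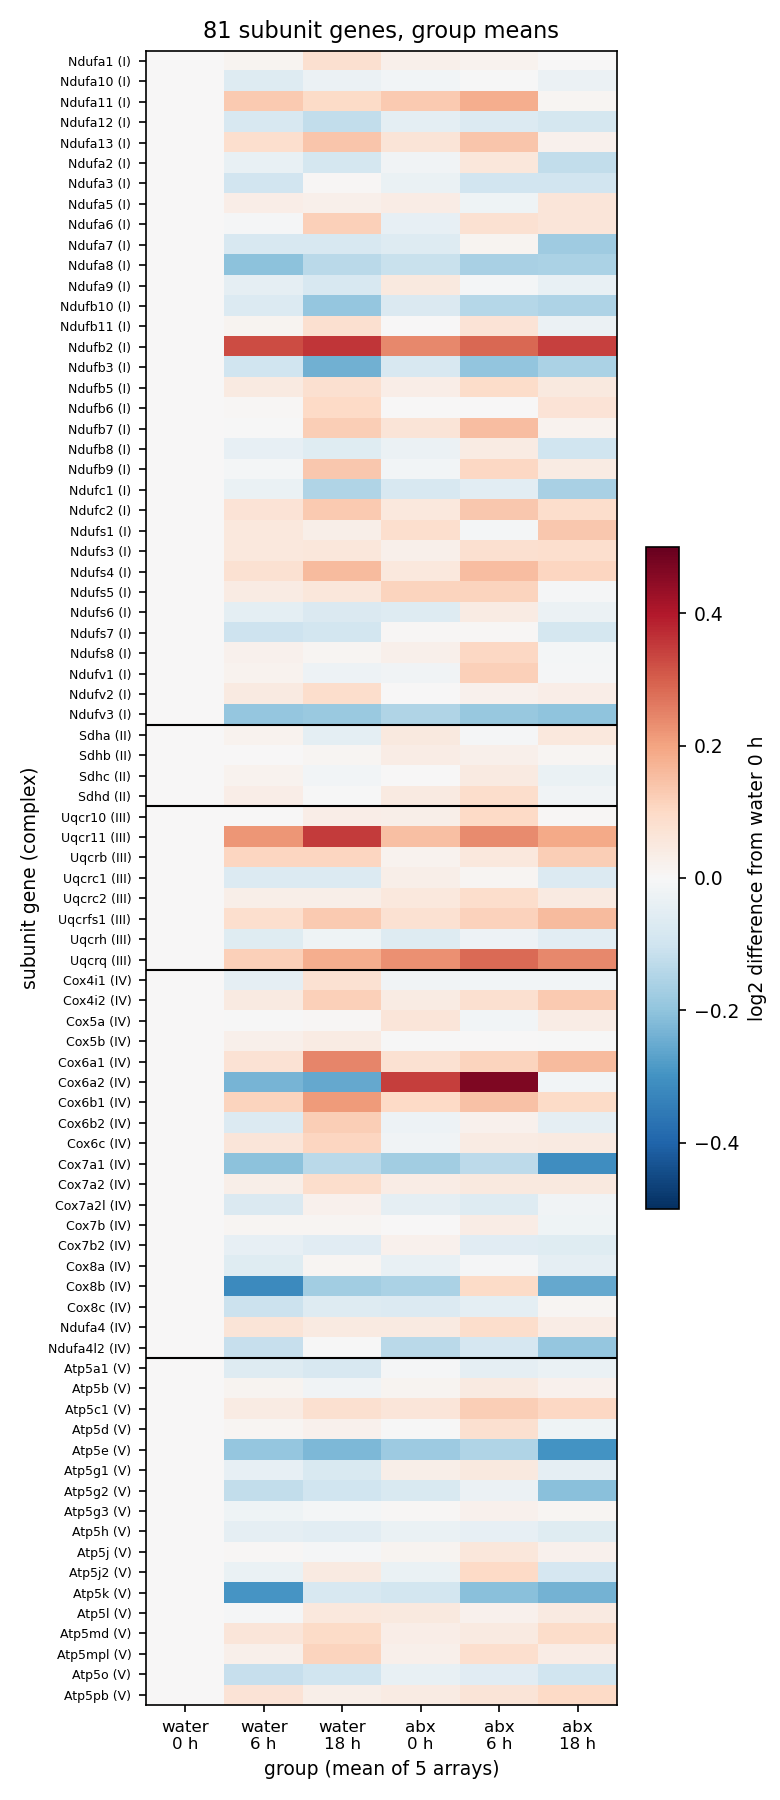
Group means of the 81 subunit genes (vertical axis, ordered by complex, with black lines between complexes) as log2 differences from the water 0 h mean; each cell is the mean of 5 arrays. Most cells are pale; Ndufb2, Uqcr11 and Uqcrq are higher and Atp5e lower in all 5 other groups, and Cox6a2 stands 0.34 above water 0 h in antibiotic mice at 0 h.

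In water mice at 18 h after oxaliplatin, Uqcr11, Cox6b1, Cox6a1 and 6 other members rose, and Atp5e, Ndufb10, Ndufc1 and Ndufa12 fell. Of the 81 genes, these 13 (16.0%) passed the threshold, an adjusted p below 0.05 in a limma fit to all 19938 genes with Benjamini-Hochberg adjustment. Here and below, counts of genes that rose or fell are counts of those that passed. Over all genes 14.1% passed in this comparison, 6.18% higher and 7.94% lower, so the members' share was near the background. By complex, 4 of 33 genes rose and 3 fell in complex I, none of 4 passed in complex II, 2 of 8 rose in complex III, 3 of 19 rose in complex IV and 1 of 17 fell in complex V. The members' median change was 0.01, as was that of all genes. For 65 of the 81 (80.2%) the whole 95% interval of the change lay within 1.2-fold in either direction, against 61.0% of all genes. This comparison was not matched for level either.

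**Figure D2:**
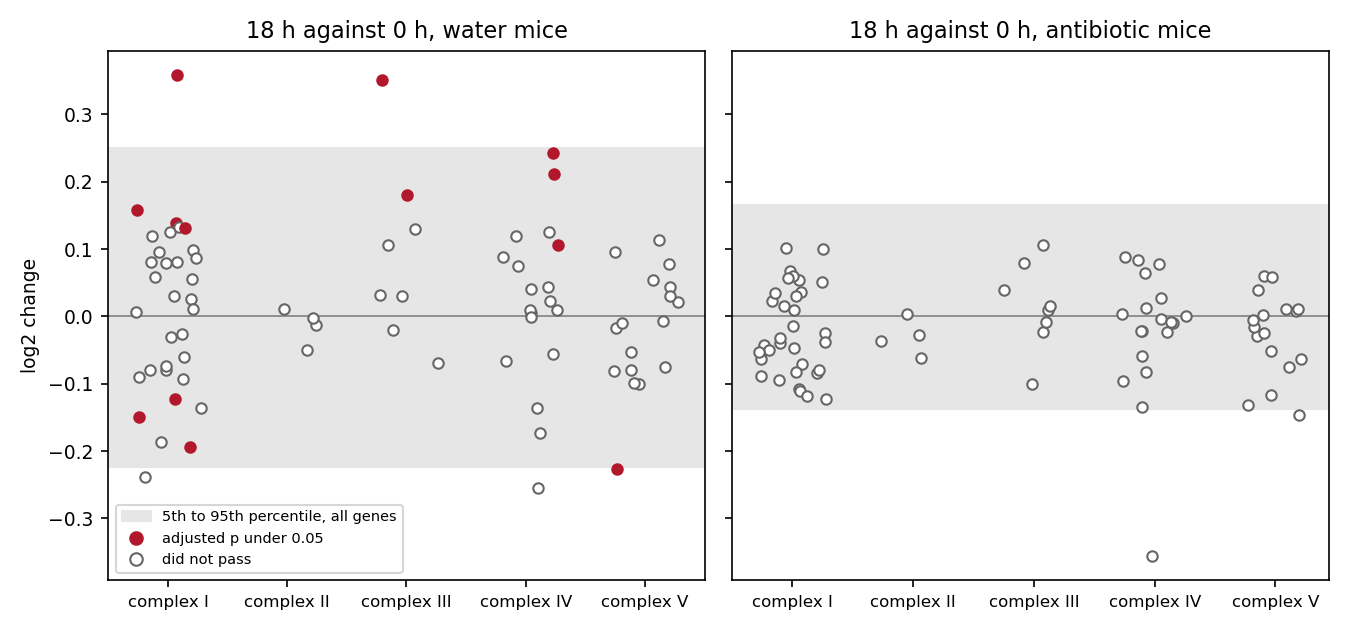
Log2 change from 0 h to 18 h of each subunit gene (points) by complex, in water mice (left) and antibiotic mice (right); filled red points had an adjusted p below 0.05 and the grey band spans the 5th to 95th percentile of all genes. Red points appear only in water mice, 9 above 0 and 4 below it, and 11 of these 13 have the same sign in antibiotic mice.

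In complex III, Uqcr11, one of its smallest subunits, gave the largest change. Its values in water mice were 10.60, 10.64, 10.96, 10.71 and 10.92 at 0 h, 11.05, 11.04, 10.90, 10.92 and 11.02 at 6 h, and 11.16, 11.13, 11.25, 11.16 and 10.90 at 18 h. In 4 of the 5 arrays at 18 h it was above every array at 0 h, and the remaining array, number 5, lay within the range at 0 h. The change was 0.35 ± 0.08 log2 units (SE, n = 5 and 5), or 1.28-fold, with an adjusted p of 0.00184 in the limma fit. A second feature for Uqcr11 gave 0.39. In antibiotic mice the means at 0 h and 18 h differed by 0.04 (adjusted p 0.953). The difference between the arms in this change was -0.31 (adjusted p 0.267), which did not pass. The other member of complex III to pass, Uqcrq, a small subunit near the ubiquinone-binding region, rose by 0.18 ± 0.06 (adjusted p 0.0297).

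In complex IV, the members that rose were Cox6a1, Cox6b1 and Cox6c, 3 nuclear subunits found in most tissues. Cox6b1, which faces the intermembrane space and helps join the dimer, was at 11.62, 11.72, 11.85, 11.79 and 11.84 at 0 h in water mice. At 18 h it was at 12.00, 11.99, 12.06, 11.98 and 11.85, with the lowest array just above the highest at 0 h. The change was 0.21 ± 0.04 with a limma adjusted p of 0.000853, the smallest of the members in this comparison. Cox6a1, the widely expressed form of subunit VIa, was at 11.29, 11.48, 11.49, 11.39 and 11.65 at 0 h. At 18 h it was at 11.75, 11.77, 11.79, 11.64 and 11.56, so that arrays 4 and 5 lay within the range at 0 h. The change was 0.24 ± 0.06 (adjusted p 0.00598). Cox6c rose by 0.11 ± 0.03 (adjusted p 0.0125), with no overlap between the groups. In antibiotic mice the corresponding changes were -0.00 for Cox6b1, 0.08 for Cox6a1 and 0.06 for Cox6c, and none passed.

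**Figure D3:**
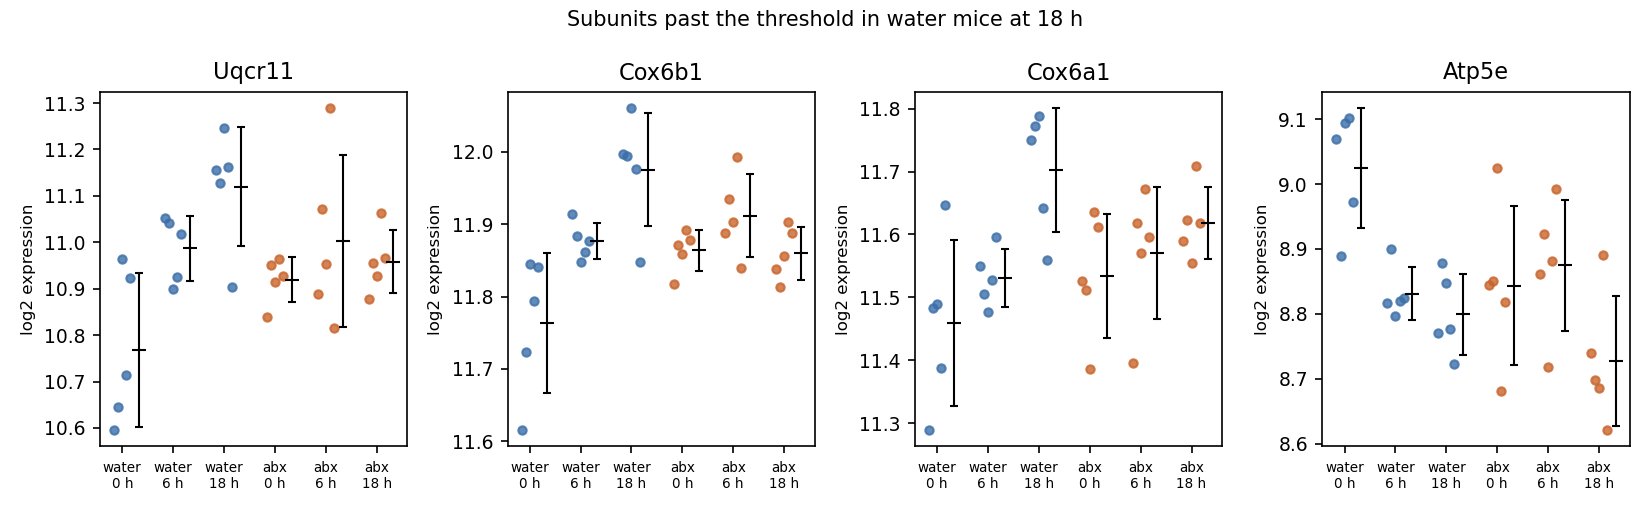
Log2 values of Uqcr11, Cox6b1, Cox6a1 and Atp5e on each of the 30 arrays (points; blue water, orange antibiotics, abx on the axis), with group mean and SD (black, n = 5). In water mice at 18 h, array 5 of Uqcr11 is the lowest of its group at 10.90, and all 5 Atp5e arrays lie below the lowest array at 0 h.

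In complex I the members that passed were all accessory subunits, which surround the catalytic core. Ndufb2, a subunit of the membrane arm, was at 7.64, 7.65, 8.29, 8.00 and 8.39 at 0 h, 8.41, 8.32, 8.17, 8.32 and 8.37 at 6 h, and 8.24, 8.35, 8.43, 8.52 and 8.22 at 18 h in water mice. The first and second arrays at 0 h were lower than all 28 others in the study, and the remaining 3 overlapped with the later groups. The change at 18 h was 0.36 ± 0.12 (adjusted p 0.0456), and it no longer passed when either of those arrays was left out. Ndufs4, a subunit of the matrix arm whose loss in mice causes an encephalopathy like Leigh syndrome, was at 11.46, 11.56, 11.56, 11.59 and 11.59 at 0 h. At 18 h it was at 11.64, 11.84, 11.77, 11.71 and 11.61, above every array at 0 h, a change of 0.16 ± 0.04 (adjusted p 0.0162). Ndufa13 rose by 0.14 and Ndufc2 by 0.13. Ndufb10 fell by 0.19 ± 0.06 (adjusted p 0.0282), with values of 8.56, 8.54, 8.61, 8.61 and 8.61 at 0 h and 8.29, 8.39, 8.43, 8.45 and 8.41 at 18 h, which do not overlap. Ndufc1 fell by 0.15 and Ndufa12 by 0.12. The core subunits Ndufs1, which carries iron-sulfur clusters, and Ndufv1, which binds NADH, changed by 0.03 (adjusted p 0.77) and -0.03 (adjusted p 0.866).

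In complex V, Atp5e, the epsilon subunit of the F1 stalk, was the only member to pass. It was at 9.07, 8.89, 9.09, 9.10 and 8.97 at 0 h in water mice, 8.82, 8.90, 8.80, 8.82 and 8.82 at 6 h, and 8.77, 8.88, 8.85, 8.78 and 8.72 at 18 h. The groups at 0 h and 18 h did not overlap, and the change was -0.23 ± 0.06 (adjusted p 0.00817). In antibiotic mice the same contrast gave -0.12 (adjusted p 0.468), and the antibiotic mean at 0 h was already 0.18 below that of water mice (adjusted p 0.391). The alpha and beta subunits of F1, Atp5a1 and Atp5b, changed by -0.08 (adjusted p 0.0917) and -0.02 (adjusted p 0.798).

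In complex II, no gene passed in water mice. Sdha (the flavoprotein), Sdhb (the iron-sulfur protein) and the membrane anchors Sdhc and Sdhd changed by -0.05, 0.01, -0.01 and -0.00 at 18 h, and the 95% interval of each lay within 0.12 log2 units of 0.

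The calls of Uqcr11, Cox6b1 and Atp5e held under all 18 settings tried for this comparison. Those of Cox6a1, Cox6c and Ndufc2 held whichever array was left out, but not when the water groups at 0 and 18 h were fitted alone, and that of Cox6c was also lost after subtraction of array medians. Ndufb10 lost its call without water 0 h array 3, 4 or 5 or water 18 h array 1 or 2, and Ndufs4 without water 0 h array 1 or water 18 h array 2. Uqcrq lost it without water 0 h array 1, 3 or 4 or water 18 h array 1, 2 or 3, and Ndufb2 without water 0 h array 1, 2 or 4 or water 18 h array 1, 2, 3 or 4. Ndufa13 lost it without water 0 h array 1, 2 or 4 or water 18 h array 2 or 3, Ndufc1 without water 0 h array 3 or 4 or water 18 h array 1, 2 or 5, and Ndufa12 without water 0 h array 2, 3 or 5 or water 18 h array 2. The fit of these groups alone also ended the calls of Ndufs4, Uqcrq, Ndufb2, Ndufa13, Ndufc1 and Ndufa12. Subtraction of array medians ended those of Ndufs4, Uqcrq, Ndufb2 and Ndufa13, quantile normalisation that of Ndufa12, the mean of a gene's features that of Ndufc1, and an ordinary linear model that of Ndufb2. Ndufb2 was also lost without the 3 arrays with skin or muscle markers. Without water 18 h array 2, 6 members passed in all, and without water 0 h array 4, 8. Subtracting each array's median left 4 members higher and 4 lower, beside 9 and 4 in the deposited values. The shares of all genes in these alternative fits are not given.

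Markers of other cells of the tumour moved in the same comparison. In water mice at 18 h, 1 of 6 fibroblast markers (Dcn 0.39) and 3 of 7 endothelial markers (Vwf 0.29, Eng 0.33, Pecam1 0.22) passed as higher. So did 2 of 8 macrophage markers (Mpeg1 0.64, Lyz2 0.47), where 6.18% of all genes passed as higher. None of these 21 passed as lower, though the means of Mrc1 and Adgre1 were lower than at 0 h. Of 8 adipocyte markers Fabp4 rose by 0.57, while the mean of Retn was lower than at 0 h (7.32 against 7.38). Of 3 erythroid markers Epb42 rose by 0.23, but its mean value of 5.58 lay below the array medians. The fibroblast mean relative to the 30 arrays ran from -0.30 to 0.18 at 0 h and from 0.02 to 0.40 at 18 h, the endothelial mean from -0.13 to 0.06 and from 0.03 to 0.28, and the macrophage mean from -0.12 to 0.33 and from 0.12 to 0.48. No marker of these 3 lists was at the bottom of the scale, with mean values from 7.32 (Kdr) to 11.9 (Dcn). Of the 8 T cell markers only Cd3d passed, higher by 0.17. Cd3g, Ptprc and Cd28 were also higher than at 0 h, and Cd3e, Thy1, Cd5 and Zap70 lower. The part of these cells in the members' changes was not tested.

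At 6 h in water mice none of the 81 genes passed, where 1.11% of all genes did. The smallest adjusted p was that of Ndufa8, an accessory subunit of complex I. It was at 10.79, 10.73, 10.73, 10.71 and 10.94 at 0 h and at 10.58, 10.65, 10.54, 10.53 and 10.56 at 6 h. The groups did not overlap, and the change was -0.21 ± 0.05 with a limma adjusted p of 0.0609. At 18 h its arrays ran from 10.51 to 10.79. Between 6 and 18 h in water mice none of the members passed, against 9.58% of all genes. The members' median change was 0.02, as was that of all genes.

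In antibiotic mice none of the members passed at 6 h or at 18 h against 0 h, where 0% and 1.22% of all genes did. The 13 genes called in water mice at 18 h had a median change of 0.06 in their water direction in antibiotic mice, and 0.18 in water mice, the arm they were chosen in. None of the 81 differed between the arms in its change from 0 to 6 h or from 0 to 18 h by the interaction term of the limma fit, against 0% and 0.105% of all genes. The smallest adjusted p in the 18 h interaction was 0.138, for Cox6b1 (-0.22), so that passing in water mice and not in antibiotic mice was not shown to be a difference between the arms. For all 13 the interaction estimate ran against the water change. At 0 h the antibiotic mean already lay on the 18 h side of the water mean for all of them but Cox6c. Examples are Uqcr11 (10.92 against 10.77), Uqcrq (11.17 against 10.94) and Cox6b1 (11.86 against 11.76). The part of the water 0 h group in these calls was not tested.

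Between 6 and 18 h in antibiotic mice 2 members fell, 2.47% of the 81 against 2.12% of all genes. Atp5j2, the f subunit of the membrane part of ATP synthase, was at 11.45, 11.44, 11.60, 11.52 and 11.46 at 6 h and at 11.32, 11.26, 11.33, 11.35 and 11.30 at 18 h. The groups did not overlap, and the change was -0.18 ± 0.04 (adjusted p 0.0308). At 0 h the antibiotic arrays were at 11.36, 11.41, 11.30, 11.33 and 11.43, and the water arrays of all times ran from 11.29 to 11.55. Cox6a2, described next, fell by 0.48 ± 0.11 (adjusted p 0.0189). Atp5j2 lost its call without antibiotic 6 h array 3 or 4 or antibiotic 18 h array 2, 3 or 5, and Cox6a2 without antibiotic 6 h array 3 or 4 or antibiotic 18 h array 2 or 5. Neither passed when these groups were fitted alone.

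Antibiotics against water gave few calls among the members at any time. At 0 h none of the 81 passed, against 0.0903% of all genes. At 6 h 1 member passed (1.23% against 3.77%), at 18 h 2 (2.47% against 7.85%), and in the mean over the 3 times 2 (2.47% against 6.65%). At 6 h the members' median difference, antibiotic minus water mice, was 0.04 against 0.01 for all genes. The mean over all members ran from 0.00 to 0.05 in antibiotic mice at 6 h and from -0.04 to -0.00 in water mice at 6 h, relative to the 30 arrays. At 18 h the median difference was -0.02 against -0.01 for all genes. Subtracting array medians moved the median of all genes in this comparison by 0.02.

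Cox6a2, the heart and skeletal muscle form of subunit VIa, showed the largest difference between the arms. Water mice were at 8.10, 7.99, 8.27, 7.99 and 8.28 at 0 h, and antibiotic mice at 8.62, 8.55, 8.34, 8.24 and 8.60. At 6 h water mice were at 7.63, 8.00, 7.99, 7.97 and 7.88, and antibiotic mice at 8.36, 8.46, 9.01, 8.62 and 8.52. At 18 h water mice were at 8.11, 7.77, 7.97, 7.71 and 7.80, and antibiotic mice at 8.28, 8.04, 8.28, 8.09 and 7.89. The arms did not overlap at 6 h and overlapped at 0 and 18 h. The difference was 0.34 at 0 h (adjusted p 0.35), 0.70 ± 0.11 or 1.62-fold at 6 h (adjusted p 0.000711) and 0.24 at 18 h (adjusted p 0.189). Averaged over the times it was 0.43 (adjusted p 5.9e-05), and this call held in all 37 settings tried. The call at 6 h held whichever array was left out and was lost when the 6 h groups were fitted alone (adjusted p 0.0521). The interaction of arm and time did not pass at 6 h (0.35, adjusted p 0.445) or 18 h (-0.10, adjusted p 0.951).

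Of 12 skeletal muscle markers, with mean values from 7.11 (Pvalb) to 10.9 (Acta1), none passed in any of the 12 comparisons. At 6 h all 12 were higher in antibiotic than in water mice, with a median difference of 0.36. Their mean on antibiotic 6 h array 5 was 1.56, and on the other 4 antibiotic arrays at 6 h it ran from -0.67 to 0.08, against -0.65 to 0.19 on the 5 water arrays at that time. Array 5 also had the highest value of the study for the muscle isoforms Cox8b, 9.01 against 6.84 to 7.34 on the other 4 arrays of its group, and Cox7a1, 7.76 against 7.09 to 7.30. On the same array Cox6a2 was at 8.52, the third highest of its group of 5. Without this array and the 2 with high keratinocyte markers the difference of Cox6a2 between the arms at 6 h was 0.74 and still passed. Of 8 T cell markers only Cd3d passed, higher by 0.20 in antibiotic mice at 6 h, and its part was not tested. The means of Cd3g, Cd28 and Zap70 were also higher in antibiotic mice at 6 h, and those of Cd3e, Thy1, Ptprc and Cd5 lower. Cox8b and Cox7a1 did not pass in any comparison, and their differences between the arms at 6 h were 0.41 (adjusted p 0.37) and 0.08 (adjusted p 0.693). These differences, and the median difference of the muscle markers, include array 5 and are not given without it.

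**Figure D4:**
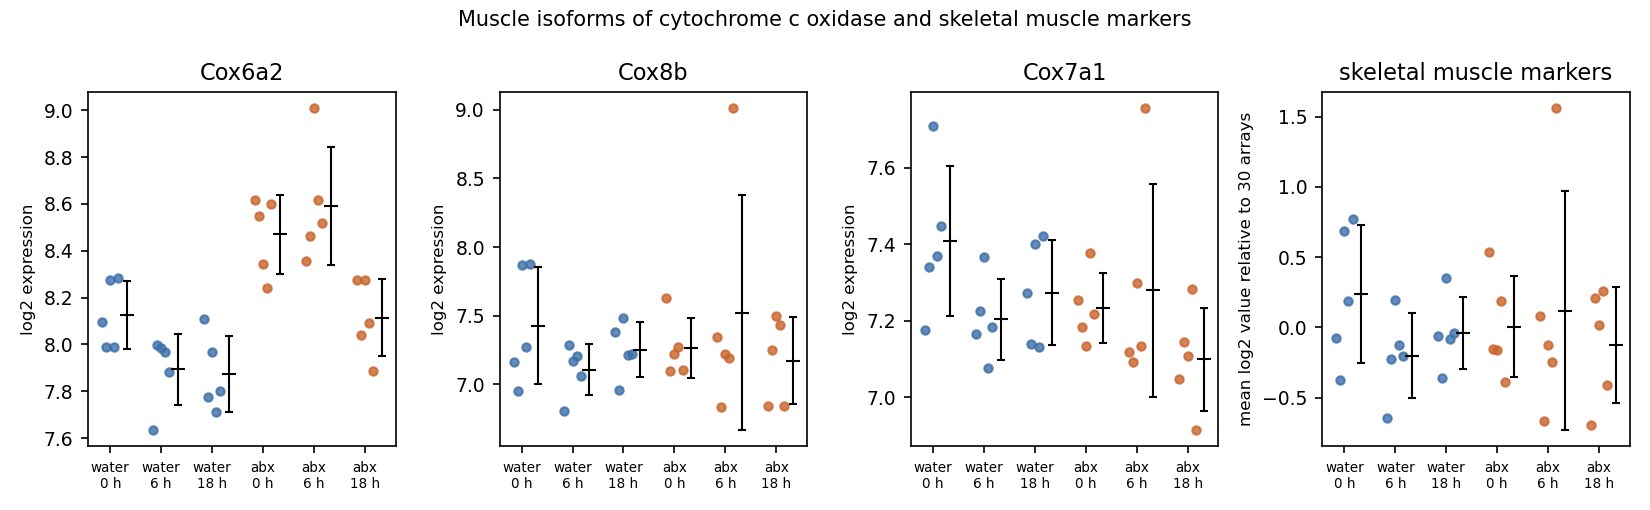
Log2 values of Cox6a2, Cox8b and Cox7a1 and the mean of 12 skeletal muscle markers (relative to their 30-array means) on each array (points; blue water, orange antibiotics, abx on the axis), with group mean and SD (black, n = 5). At 6 h all antibiotic arrays of Cox6a2 lie above all water arrays, and antibiotic array 5 is the highest of its group in the other 3 panels.

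Uqcrq was higher in antibiotic mice averaged over the times, by 0.15 ± 0.03 (adjusted p 0.00376), and this call held in all 37 settings. At 0 h water mice were at 10.88, 11.02, 10.80, 10.95 and 11.06 and antibiotic mice at 11.10, 11.22, 11.12, 11.22 and 11.17, without overlap. At 6 h they were at 11.06, 11.11, 11.02, 11.09 and 11.02 against 11.16, 11.26, 11.26, 11.43 and 11.01, with 4 of the 5 antibiotic arrays above all water arrays. At 18 h they were at 11.15, 11.15, 11.14, 11.11 and 11.05 against 11.24, 11.08, 11.19, 11.23 and 11.16. The differences at single times were 0.23, 0.17 and 0.06, with adjusted p of 0.148, 0.091 and 0.661. Cox6a2, Uqcrq and 4 regulators named further on passed in the mean over the times. In that comparison 2 of 8 macrophage markers (Cd68 -0.39, Mpeg1 -0.35) and 2 of 8 T cell markers (Cd5 -0.14, Cd3e -0.09) passed as lower in antibiotic mice. Other T cell markers were higher in antibiotic mice at some times. These were Cd3d at 0 h (10.40 against 10.30) and 6 h (10.47 against 10.27), Ptprc at 0 and 18 h, and Cd3g, Cd28 and Zap70 at 6 h. The part of these cells was not tested.

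At 18 h Sdha was 0.10 ± 0.03 higher (adjusted p 0.0457) and Ndufb11 0.11 ± 0.03 lower (adjusted p 0.0479) in antibiotic mice. Sdha was at 11.52, 11.61, 11.55, 11.59 and 11.52 in water mice and at 11.68, 11.62, 11.67, 11.67 and 11.65 in antibiotic mice, without overlap. Ndufb11, an accessory subunit of the membrane arm of complex I, was at 11.45, 11.42, 11.47, 11.44 and 11.33 in water mice and at 11.38, 11.27, 11.25, 11.30 and 11.37 in antibiotic mice, with water array 5 within the antibiotic range. Both lay close to the threshold. Sdha lost its call without water 18 h array 1, 3, 4 or 5 or antibiotic 18 h array 1, 3, 4 or 5, and Ndufb11 without water 18 h array 1, 2, 3 or 4 or antibiotic 18 h array 2, 3 or 4. Neither passed after subtraction of array medians or when the 18 h groups were fitted alone, Sdha was also lost with array weights, and Ndufb11 without the 3 arrays with skin or muscle markers. In this comparison all 8 macrophage markers were lower in antibiotic mice, with a median difference of -0.38, and 1 of them passed (Cd68, -0.53). Of the 8 T cell markers Cd3d was lower by 0.19 and passed, while Ptprc was higher (11.86 against 11.83) without passing. Of the 8 adipocyte markers Fabp4 was lower by 0.43 and passed, while Retn (7.38 against 7.32) and Ucp1 (5.81 against 5.77) were higher without passing. Their part in the result was not tested.

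Of the isoforms of complex IV, Cox6a1 rose in water mice at 18 h, as given above, and Cox6a2 differed by -0.25 (adjusted p 0.122). The ratio of isoforms was not tested. Cox4i1, the general form of subunit IV, and Cox4i2, a form known from lung and from low oxygen, differed between 18 h and 0 h in water mice by 0.08 (adjusted p 0.309) and 0.12 (adjusted p 0.324). Cox7a2, the general form of subunit VIIa, differed by 0.09 (adjusted p 0.233), and Cox7a1 by -0.14 (adjusted p 0.464). Cox8a differed by 0.01 (adjusted p 0.919) and Cox8b by -0.17 (adjusted p 0.751). Cox7a2l, which takes part in joining complexes III and IV into supercomplexes, differed by 0.02 (adjusted p 0.853). Ndufa4 and Ndufa4l2, the latter known as a target of hypoxia-inducible factor, differed by 0.04 (adjusted p 0.633) and -0.00 (adjusted p 0.996). In complex III, Uqcrc1, a core protein, differed by -0.07 (adjusted p 0.225), and Uqcrfs1, the Rieske iron-sulfur protein, by 0.13 (adjusted p 0.141). Of the isoforms, Cox4i2, Cox7a1, Cox8b and Ndufa4l2 had mean values of 7.06 to 7.43, near the array medians.

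Of 17 regulators of mitochondrial genes tested, 7 fell and none rose at 18 h in water mice (41.2% of the list, against 7.94% of all genes lower), and their median change was -0.17 against 0.01 for all genes. This list and the lists that follow were chosen with earlier results of these data known, so their shares are descriptions only. Gabpa, the DNA-binding subunit of GABP, was at 9.65, 9.66, 9.79, 9.76 and 9.66 at 0 h and at 8.94, 9.28, 9.13, 9.30 and 9.34 at 18 h, a change of -0.51 ± 0.07 (adjusted p 3.15e-05). Nrf1 was at 9.47, 9.37, 9.41, 9.43 and 9.28 at 0 h and at 8.93, 8.95, 8.85, 9.00 and 8.97 at 18 h, a change of -0.45 ± 0.06 (adjusted p 1.13e-05). Twnk, the mitochondrial DNA helicase, fell by 0.36, Pprc1, a coactivator related to PGC-1, by 0.34, Ppargc1b, the coactivator PGC-1 beta, by 0.24, Myc by 0.22 and Yy1 by 0.20. For Gabpa, Nrf1, Pprc1 and Yy1 the groups at 0 h and 18 h did not overlap.

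In antibiotic mice 1 of the 17 fell at 18 h, Pprc1 by 0.27 (adjusted p 0.000256), in a comparison where 1.22% of all genes passed. The changes of Nrf1, Gabpa and Yy1 there were -0.23 (adjusted p 0.068), -0.17 (adjusted p 0.342) and 0.00 (adjusted p 0.989). At 18 h 4 regulators were higher in antibiotic than in water mice (23.5% of the list, against 7.85% of all genes): Gabpa by 0.33, Nrf1 by 0.24, Pprc1 by 0.17 and Yy1 by 0.14. None of the 17 passed the interaction at 18 h, where Gabpa differed by 0.33 (adjusted p 0.22), Nrf1 by 0.23 (adjusted p 0.36) and Yy1 by 0.20 (adjusted p 0.0936). Nrf1 at 18 h lost its call between the arms without antibiotic 18 h array 1 or 4, and Gabpa, Nrf1 and Pprc1 all lost it when the 18 h groups were fitted alone. Averaged over the times, 4 of the 17 were higher in antibiotic mice, where 6.65% of all genes passed: Ppargc1b (0.14), Pprc1 (0.13), Nrf1 (0.12) and Myc (0.11). That call of Nrf1 was lost in 19 of the 30 fits that left out 1 array, and without the 3 arrays with skin or muscle markers.

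**Figure D5:**
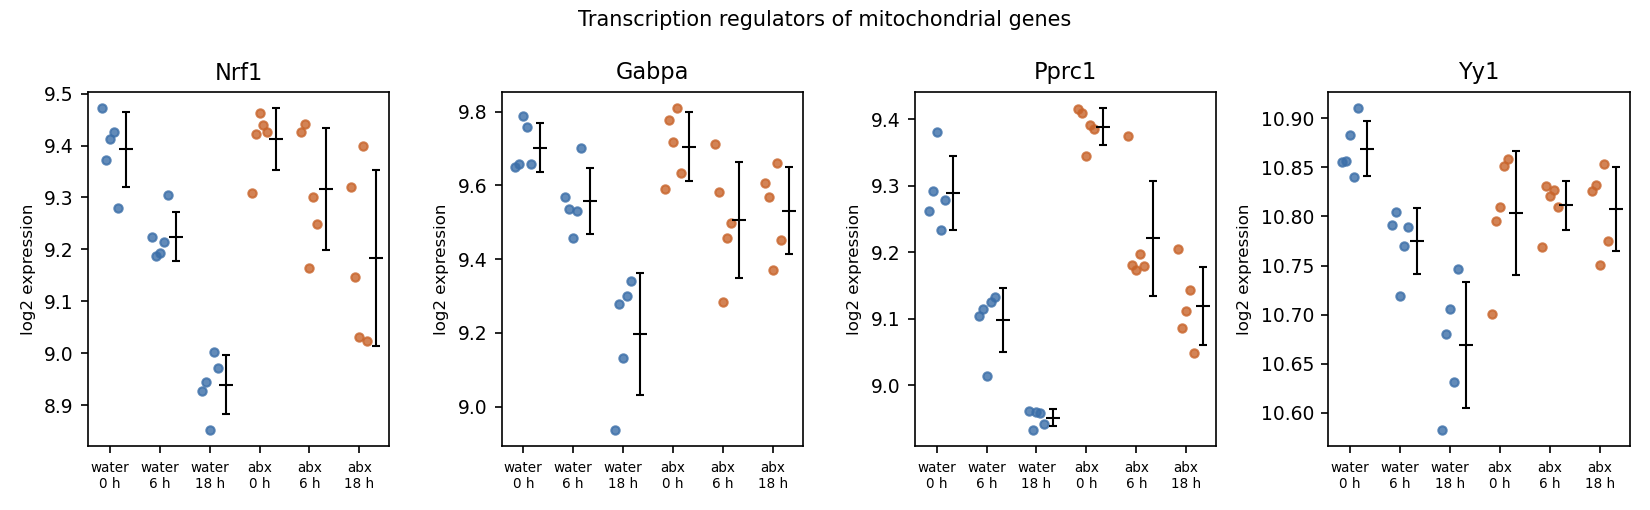
Log2 values of the regulators Nrf1, Gabpa, Pprc1 and Yy1 on each array (points; blue water, orange antibiotics, abx on the axis), with group mean and SD (black, n = 5). All 5 water arrays at 18 h lie below all water arrays at 0 h in each panel, and 5 of 5 lie below all antibiotic arrays at 18 h.

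Assembly factors build the complexes and are not part of them. Of 13 complex I assembly factors tested, 2 rose and 4 fell at 18 h in water mice (46.2%, against 14.1% of all genes). Ecsit fell by 0.43 (adjusted p 4.08e-06), Ndufaf2 by 0.43 (adjusted p 0.00289) and Ndufaf4 by 0.39 (adjusted p 4.92e-05), and these calls held whichever array was left out. Of 30 assembly factors of complexes II to V, 2 rose and 7 fell (30.0%). Cox19, which takes part in copper handling for complex IV, fell by 0.26 and Coa7 by 0.26, and Uqcc3, an assembly factor of complex III, rose by 0.26. Coa7 lost its call without water 0 h array 3 or 4 or water 18 h array 1 or 5. Uqcc3 differed in its 18 h change between the arms, by -0.32 (adjusted p 0.0462), but lost this call in 15 of the 20 fits that left out 1 array, after subtraction of array medians and when only these groups were fitted. Of 16 electron carriers, makers of ubiquinone and other subunits, none rose and 5 fell (31.2%), among them Coq5 (-0.28), Coq4 (-0.21) and Coq7 (-0.18). Coq4 lost its call when these groups were fitted alone, as did Coq7. Coq5 lost its call without water 0 h array 4, and Coq7 without any 1 of 9 of the 10 arrays. Cycs, the cytochrome c gene, changed by 0.03 (adjusted p 0.801). Cyc1, a subunit of complex III outside the members, fell by 0.17 in water mice (limma adjusted p 0.0226). In antibiotic mice Cyc1 fell by 0.20 from 0 to 18 h (limma adjusted p 0.0393), a call kept in 9 of 18 settings.

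Of 17 genes of pyruvate dehydrogenase and the citric acid cycle, 1 passed at 18 h in water mice (5.88%): Cs, citrate synthase, fell by 0.15 (adjusted p 0.00498). Of 9 membrane carriers 3 rose and 1 fell (44.4%, against 14.1% of all genes). Mpc1, a subunit of the mitochondrial pyruvate carrier, was at 11.04, 11.10, 10.95, 11.11 and 11.12 at 0 h and at 11.28, 11.52, 11.46, 11.47 and 11.39 at 18 h, a change of 0.36 ± 0.05 (adjusted p 2.19e-05). In antibiotic mice Mpc1 differed by 0.13 (adjusted p 0.293). Slc25a4, an ADP/ATP carrier, rose by 0.17, and Vdac2, an outer membrane channel, fell by 0.18. The calls of Cs and Slc25a4 were lost when these groups were fitted alone. Of the mitochondrially encoded subunits ND3 and COX2 were tested, and they changed by 0.01 and -0.05 at 18 h in water mice. At 6 h both were lower in antibiotic than in water mice by 0.13, with adjusted p of 0.117 and 0.133.

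In antibiotic against water mice at 18 h, 3 of 13 complex I assembly factors passed (23.1%, against 7.85% of all genes): Ecsit (0.22) and Ndufaf4 (0.23) were higher and Ndufaf3 (-0.31) lower. Ecsit lost its call without antibiotic 18 h array 1, Ndufaf4 without water 18 h array 1 or antibiotic 18 h array 4, and Ndufaf3 without water 18 h array 2 or 3 or antibiotic 18 h array 1. Of the 30 assembly factors of the other complexes 3 were higher and 2 lower (16.7%), with Bcs1l, which inserts the Rieske protein into complex III, lower by 0.29 (adjusted p 0.00358), Coa7 higher by 0.26 and Lrpprc, which stabilises mitochondrial mRNAs, higher by 0.21. Coa7 lost its call without water 18 h array 1, 4 or 5 or antibiotic 18 h array 1, 2 or 4. Ecsit, Ndufaf3, Bcs1l and Coa7 lost theirs when the 18 h groups were fitted alone. Bcs1l also fell in antibiotic mice from 0 to 18 h, by 0.30 (adjusted p 0.00757). Hccs, which attaches haem to cytochrome c, was higher by 0.21 and Pdha1, the E1 alpha subunit of pyruvate dehydrogenase, by 0.19 (adjusted p 0.00382).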

How the data were processed

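The deposited values are log2 expression per feature, as deposited by the authors: 28853 features on 30 arrays. Partek 6.6 is named in the submitters' processing notes without a role. The summarisation, normalisation and genome build are not given in the sources used here. Of the features, 21775 had 1 symbol in the platform annotation, 1578 several and 5500 none; 6 with several symbols, of which 1 matched, were left out. The members and gene lists were chosen with earlier results of these data known. The feature with the highest mean stood for each gene. Group means were fitted with limma 3.58.1 (lmFit, eBayes) in R 4.3.3 to all 6 groups, with 24 residual degrees of freedom, and 12 contrasts were adjusted by Benjamini-Hochberg over 19938 genes each. Changes are differences of log2 means. The number of arrays limits precision. Array numbers follow sample order within a group and pair no samples, and no batch is named.

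Genes named are the up to 3 called members with the largest change per complex and contrast, those with the highest and lowest mean and the largest spread, fixed isoforms and core subunits, and up to 3 called genes per list and contrast. Not every call picked from the lists is described. Cox17, Cox11, Lyrm7, Coq3, Polrmt, Vdac3 and Slc25a11 are left out, as are the calls of Cs and Pprc1 in water mice at 6 h. Ndufa13, Ndufc2, Ndufc1, Ndufa12, Ppargc1b, Pprc1, Myc, Yy1, Cycs and the other genes outside this rule were chosen after their values were seen. The fit was tested on simulated data. Alternatives were quantile normalisation, subtraction of array medians, a filter on low values, an ordinary linear model, array weights, a fit of only the groups compared, the mean of a gene's features, each array left out in turn and, chosen after seeing the data, leaving out the 3 arrays with skin or muscle markers.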

Additional observations from a re-analysis of the deposited data

Results flagged for a closer look

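In 180 groups of 5 values, the highest or lowest array stood apart from the other 4 in 9; chance gives about 5% of groups. Cox8b on antibiotic 6 h array 5 was at 9.01, and the nearest array of its group at 7.34; this was the array with the highest muscle markers. Ndufa12 on water 18 h array 2 was at 10.2, Ndufs4 on water 0 h array 1 at 11.5 and Atp5e on water 6 h array 2 at 8.90. Nrf1 on antibiotic 0 h array 1 was at 9.31. Pprc1 was at 9.01 on water 6 h array 3 and at 9.37 on antibiotic 6 h array 1, which was also 1 of the 2 arrays with high keratinocyte markers. The mean of the complex III genes on water 18 h array 5 was -0.0421, relative to the 30 arrays, against 0.03 on the nearest array of its group. The mean of the complex V genes on water 6 h array 3 was -0.0417, against -0.02 on the nearest.

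The change of Uqcc3 from 0 to 18 h differed between the arms by -0.32 in the interaction term of the limma fit (adjusted p 0.0462). It rose by 0.26 in water mice (higher in 5 of 5 arrays than every array at 0 h) and changed by -0.07 in antibiotic mice.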

How the results depend on the processing

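Counts of members called depended on the setting. The counts over all genes under each setting are not given here, so the counts below describe the settings and not the members. In water mice at 18 h against 0 h, 13 became 8 after subtraction of array medians, 20 with the filter on low values, 22 with array weights and 4 when only these groups were fitted; between 6 and 18 h, 0 became 4 with quantile normalisation, 4 with the filter and 7 with weights; at 6 h, 1, 1 and 5. In antibiotic mice between 6 and 18 h, 2 became 4 with quantile normalisation, 5 with the filter, 0 with only these groups and 4 without the 3 arrays with skin or muscle markers; at 18 h against 0 h, 0 became 1 with weights. Antibiotics against water at 0 h gave 1 with weights and 1 without the 3 arrays; at 6 h, 3 with the filter, 2 with weights, 0 with only these groups and 2 without the 3 arrays; at 18 h, 4 with quantile normalisation, 0 with medians subtracted, 5 with the filter, 0 with only these groups and 1 without the 3 arrays. The 18 h interaction gave 2 with weights. The filter tests 10367 genes, 75 of them members, and the fit of only the groups compared uses fewer samples; the other causes were not tested. Leaving out 1 array gave 1 to 3 for antibiotics against water at 6 h, 0 to 4 at 18 h, 6 to 14 for water at 18 h against 0 h, 0 to 3 for water between 6 and 18 h, 0 to 4 for antibiotics between 6 and 18 h and 0 to 1 for the 18 h interaction. The members' median in the 6 h interaction was 0.03 and became -0.00331 with medians subtracted. No other median moved beyond the spread between arrays within groups, a standard deviation of 0.03. That limit is larger than several of the medians themselves, so a median could change sign and still count as unmoved. Of the called changes followed none reversed: set against every alternative, the call was kept 1319 times and lost 265 times. In the gene lists, called genes beyond the 3 largest changes of a list and comparison were not followed. Array medians subtracted or quantiles equalised moved the median of all genes by at most 0.03. No paired analysis was possible because the labels give no number that pairs samples of different groups.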
